A study of Astyanax mexicanus with 14 samples.

Results

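Of the 19076 genes measured in whole Mexican tetra (Astyanax mexicanus) larvae, 175 were expressed in surface fish and nearly absent in Pachón cavefish. They were chosen from the counts by 3 conditions. The mean count over the surface controls was at least 50. The mean log2 CPM of the cave controls (counts per mega-count of library total, scaled by the TMM method of edgeR with a prior count of 2) lay at least 3 below that of the surface controls, so the difference was at most -3. The highest cave library lay below the lowest surface library. The 175 genes were 0.917% of all genes and 1.33% of the 13190 genes that met the count minimum, and the values that chose them are described below without a test.

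Each library was made from RNA of a pool of 4 whole larvae, 6 days post-fertilization, collected 90 min after treatment. The 4 groups were cave morph larvae given UV-B radiation for 60 s (3 libraries), cave morph larvae given white light as control (3 libraries), surface morph larvae given UV-B (4 libraries) and surface morph controls (4 libraries). The cavefish came from the Pachón population, so a single cave population stands against a single surface population, and the labels do not say whether the pools of a group came from separate clutches. The p-values given below therefore measure the spread between pools.

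Vertebrate photoreceptors detect light through opsins, receptors that activate the G protein transducin, which in turn activates a phosphodiesterase that lowers cyclic GMP and closes channels in the outer segment. Guanylate cyclase activating proteins, recoverin and arrestins end the response, and the retinoid visual cycle in the photoreceptors and their supporting cells renews the chromophore. Surface fish have functional eyes. In Pachón cavefish eyes form in the embryo and then degenerate, and the adults are blind.

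A gene name was available for 51 of the 175 genes. These names came from the study's own tables of UV-B responses, which were shortened, so a named gene is one that stood high in those lists, which were ordered by p-value. The other 124 genes are given by Ensembl identifier. No sequence was printed, since no reference sequence of this genome was used.

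Library totals ran from 7.42 to 15.26 M counts, and 3 counts, the limit that a count of 0 allows, corresponded to between 0.177 and 0.460 normalised CPM per library. Such limits cover counting error only. The sample label is whole body, and none of the listed genes of intestine, liver, skeletal muscle, skin, neurons, immune cells and pigment cells was at 0 in all libraries of any group.

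How far the 175 genes were depleted in cavefish was the first question. Together they held 0.0225% to 0.0265% of the counts in the cave UV-B libraries and 0.0189% to 0.0248% in the cave controls. In surface fish they held 1.20% to 1.33% after UV-B and 0.833% to 1.09% in controls. The cave and surface libraries were far apart, as the rule required. In whole larvae, fewer cells of a type and less RNA per cell cannot be told apart. Reads of both populations were mapped to the same reference genome, and the effect of sequence differences on the counts was not tested.

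The cave minus surface difference in log2 CPM between controls ran from -9.03 for rho to -3.004 for prkar2ab, with a median of -4.07, beside a median of -0.05 over all genes that met the count minimum. It was at most -4 in 96 genes, at most -5 in 41, at most -6 in 22, at most -7 in 6 and at most -8 in 3. Between the highest cave library and the lowest surface library the gap had a median of 2.73 on the log2 scale, and 169 genes had a gap over 1. In this contrast 15.0% of all genes tested were called lower in cave controls, and the rule fixed the direction for the 175. The larvae given UV-B also entered the rule, since every cave library had to lie below every surface library. The median edgeR log2 fold change of the 175, cave over surface, was -4.60 after UV-B and -4.50 in controls. This measure is not the difference in log2 CPM given above. In these contrasts 44.3% and 27.6% of all genes tested were called in either direction.

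**Figure D1:**
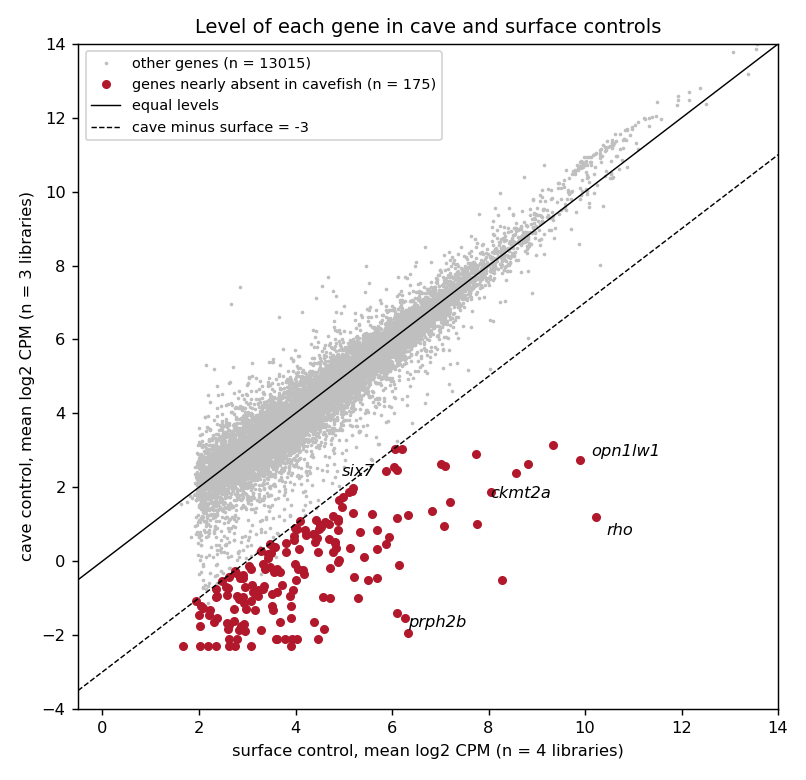
Mean log2 CPM of each gene in cave controls (vertical axis, 3 libraries) against surface controls (horizontal axis, 4 libraries), for genes with a mean count of at least 50 in surface controls. The 175 genes (red) lie on or under the dashed line at a difference of -3, and rho lies farthest below the line of equal levels.

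Nearly absent did not mean undetected. Of the 175 genes, 4 had no count in any cave library, 8 had none in any cave control, and 21 had at most 3 counts in every cave library. At the other end, 67 had more than 3 counts in every cave library and 34 had at least 10. Per cave library between 19 and 31 of the genes were at 0, and none was at 0 in a surface library. Among the 8 genes at 0 in all cave controls was ENSAMXG00000042064, which averaged 6.60 ± 1.30 normalised CPM in surface controls (SD, n = 4), at least 20.1-fold higher in surface controls when 3 counts per cave library are taken as the limit.

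Just inside the threshold lay ENSAMXG00000041549 (difference -3.004), with 1.93 normalised CPM on average in cave controls and 16.8 in surface controls, and prkar2ab, a regulatory subunit of protein kinase A, with 0.694 ± 0.396 in cave controls (SD, n = 3) and 6.66 ± 1.68 in surface controls (SD, n = 4). Just outside lay ENSAMXG00000009663 and arl3l2 (both -2.98), a small GTPase gene with 2.56 normalised CPM in cave controls and 21.4 in surface controls. A further 5 genes met the first 2 conditions but overlapped between populations, among them il1b and nox1.

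The opsins receive light, and rho was the most depleted of the 175 genes, with opn1lw1 in the sixth place. Rod opsin (rho) had 5.43, 4.45 and 4.83 normalised CPM in cave UV-B larvae, 1.88, 2.13 and 2.24 in cave controls, 1894, 2102, 1956 and 1929 in surface UV-B larvae, and 1343, 943, 1328 and 1193 in surface controls. Its surface control mean was 577 times the cave control mean. The red cone opsin opn1lw1 had 11.6, 11.5 and 16.0 normalised CPM in cave UV-B larvae, 6.46, 6.06 and 7.05 in cave controls, 1208, 1294, 1228 and 1381 in surface UV-B larvae, and 989, 812, 1024 and 1006 in surface controls. The blue cone opsin opn1sw2 had 4.18, 2.30 and 3.34 normalised CPM in cave UV-B larvae, 1.46, 1.46 and 2.46 in cave controls, 169, 172, 198 and 212 in surface UV-B larvae, and 147, 108.02, 143 and 142 in surface controls. All 3 visual opsins were still counted in every cave library, with 18, 19 and 20 counts of rho and 62, 54 and 63 counts of opn1lw1 in the cave controls. The non-visual opsin opn6a averaged 0.966 ± 0.359 normalised CPM in cave UV-B larvae, 0.659 ± 0.133 in cave controls, 20.6 ± 2.42 in surface UV-B larvae and 12.3 ± 2.22 in surface controls (SD, n = 3, 3, 4 and 4).

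Several genes of the transduction cascade behind the opsins were in the group, though the listed channel subunit gene cngb3.2, described below, was higher in cave controls. The cone transducin alpha subunit gnat2 had 1.11, 2.15 and 1.61 normalised CPM in cave UV-B larvae, 0.313, 0.561 and 1.79 in cave controls, 95.7, 107, 109.6 and 106 in surface UV-B larvae, and 79.8, 59.6, 80.3 and 64.7 in surface controls. The cone transducin gamma subunit gngt2b had 11.7, 7.36 and 13.6 normalised CPM in cave UV-B larvae, 4.48, 5.38 and 8.96 in cave controls, 650.4, 640.4, 641 and 763 in surface UV-B larvae, and 449.8, 413, 419.6 and 524 in surface controls. The cone phosphodiesterase pde6c had 5.01, 4.60 and 7.06 normalised CPM in cave UV-B larvae, 4.79, 1.79 and 4.70 in cave controls, 349.8, 377, 356 and 396 in surface UV-B larvae, and 286, 233, 293 and 259.9 in surface controls. For gnat2, gngt2b and pde6c the 6 cave libraries lay under 20 normalised CPM and the 8 surface libraries over 50. Phosducin (pdcb), which binds transducin subunits, had 0.835, 0.767 and 0 normalised CPM in cave UV-B larvae, 0.521, 0 and 0.672 in cave controls, 41.6, 43.3, 35.1 and 43.1 in surface UV-B larvae, and 25.9, 22.4, 31.6 and 25.4 in surface controls.

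Genes that end or adjust the light response followed the same order of populations. The arrestin gene sagb had 2.09, 1.53 and 3.22 normalised CPM in cave UV-B larvae, 1.98, 4.38 and 1.46 in cave controls, 172, 171, 159.97 and 178 in surface UV-B larvae, and 120.1, 90.1, 120.4 and 128 in surface controls. Its paralog saga had 0.557, 0.613 and 0.248 normalised CPM in cave UV-B larvae, 0.313, 0 and 0.112 in cave controls, 20.4, 24.1, 18.6 and 22.2 in surface UV-B larvae, and 13.4, 9.96, 16.6 and 11.2 in surface controls. The guanylate cyclase activator guca1c had 0.835, 1.23 and 1.86 normalised CPM in cave UV-B larvae, 0.521, 0.673 and 0.336 in cave controls, 67.0, 54.6, 61.6 and 69.6 in surface UV-B larvae, and 46.2, 41.3, 47.9 and 46.7 in surface controls. In saga and guca1c all cave values were under 2 normalised CPM. A second activator, guca1g, had 0.557, 1.07 and 0.619 normalised CPM in cave UV-B larvae, 0.313, 0 and 0 in cave controls, 11.3, 11.989, 10.6 and 15.2 in surface UV-B larvae, and 7.20, 5.92, 6.99 and 7.53 in surface controls. Recoverin (rcvrn2), a calcium sensor, had 11.970, 13.3 and 14.4 normalised CPM in cave UV-B larvae, 8.23, 6.06 and 7.50 in cave controls, 299.6, 342, 305 and 339 in surface UV-B larvae, and 222, 181, 262 and 195 in surface controls. With 79, 54 and 67 counts in the cave controls, rcvrn2 stayed well above the counting limit there.

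Other genes listed under phototransduction and the outer segment were in the group as well. Peripherin (prph2b), which shapes the rims of outer segment discs, had 0.139, 1.53 and 0.991 normalised CPM in cave UV-B larvae, 0.208, 0.112 and 0.224 in cave controls, 77.7, 103, 98.1 and 102 in surface UV-B larvae, and 72.7, 63.8, 75.3 and 63.6 in surface controls. The photoreceptor cadherin cdhr1a had 0.974, 0.767 and 0.619 normalised CPM in cave UV-B larvae, 2.08, 1.23 and 1.34 in cave controls, 50.7, 64.7, 63.6 and 54.3 in surface UV-B larvae, and 41.2, 36.0, 39.6 and 45.6 in surface controls. The matrix proteoglycan impg1b had 0.557, 0.460 and 0.495 normalised CPM in cave UV-B larvae, 0.938, 2.13 and 1.34 in cave controls, 22.6, 18.2, 27.4 and 26.7 in surface UV-B larvae, and 19.4, 10.6, 16.4 and 17.2 in surface controls. Cave UV-B larvae were below cave controls in cdhr1a and impg1b, whereas prph2b overlapped between them. The Arl3-like GTPase arl3l1 had 2.51, 2.15 and 3.72 normalised CPM in cave UV-B larvae, 1.35, 1.79 and 2.91 in cave controls, 42.5, 44.6, 50.8 and 51.8 in surface UV-B larvae, and 36.3, 25.3, 30.3 and 26.3 in surface controls.

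Regulators of photoreceptor fate were in the group too. The rod factor nrl had 0.418, 0.767 and 0 normalised CPM in cave UV-B larvae, 0, 0.112 and 0.224 in cave controls, 11.9, 11.0, 9.41 and 11.2 in surface UV-B larvae, and 6.31, 4.23, 6.36 and 7.18 in surface controls. The nuclear receptor nr2e3, which acts with it in rods, had 1.25, 1.53 and 1.86 normalised CPM in cave UV-B larvae, 1.35, 1.01 and 1.34 in cave controls, 32.2, 30.6, 31.3 and 38.2 in surface UV-B larvae, and 18.8, 18.9, 24.4 and 22.6 in surface controls. The homeobox factor six7, known in zebrafish for cone opsin expression, had 2.23, 1.69 and 2.60 normalised CPM in cave UV-B larvae, 3.44, 4.38 and 2.69 in cave controls, 54.1, 48.1, 48.1 and 60.2 in surface UV-B larvae, and 35.9, 28.2, 34.1 and 40.0 in surface controls. Cave nrl values rested on at most 5 counts per library, so its differences within cavefish were not detectable at this depth.

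The visual cycle and the retinal synapse each gave some members. The retinol dehydrogenase RDH8 had 0, 0.613 and 0.867 normalised CPM in cave UV-B larvae, 0.625, 0.561 and 0.448 in cave controls, 54.9, 60.8, 43.5 and 54.4 in surface UV-B larvae, and 38.4, 30.2, 36.9 and 44.1 in surface controls. The retinaldehyde-binding protein gene rlbp1a, expressed in supporting cells, had 9.46, 7.21 and 8.30 normalised CPM in cave UV-B larvae, 4.38, 4.82 and 7.28 in cave controls, 109, 100.4, 109.6 and 130.4 in surface UV-B larvae, and 66.9, 54.2, 70.2 and 84.8 in surface controls. Only a few reads of RDH8 were found in any cave library, whereas rlbp1a had more than 40 counts in each. Complexin cplx4c, a regulator of vesicle release at ribbon synapses, had 0, 0 and 0.124 normalised CPM in cave UV-B larvae, 0.104, 0 and 0 in cave controls, 21.4, 17.7, 17.9 and 20.3 in surface UV-B larvae, and 12.4, 10.2, 12.7 and 13.5 in surface controls. A single count made up its cave control total. Its paralog cplx4a had 10.0, 6.13 and 11.0 normalised CPM in cave UV-B larvae, 5.73, 5.05 and 7.39 in cave controls, 186, 177, 179 and 206 in surface UV-B larvae, and 130.4, 112, 127 and 154 in surface controls. The calcium-binding protein gene cabp5a, of bipolar cells, had 1.11, 1.69 and 0.867 normalised CPM in cave UV-B larvae, 2.19, 1.01 and 3.58 in cave controls, 47.3, 41.6, 49.5 and 60.9 in surface UV-B larvae, and 31.8, 20.9, 24.2 and 44.6 in surface controls.

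**Figure D2:**
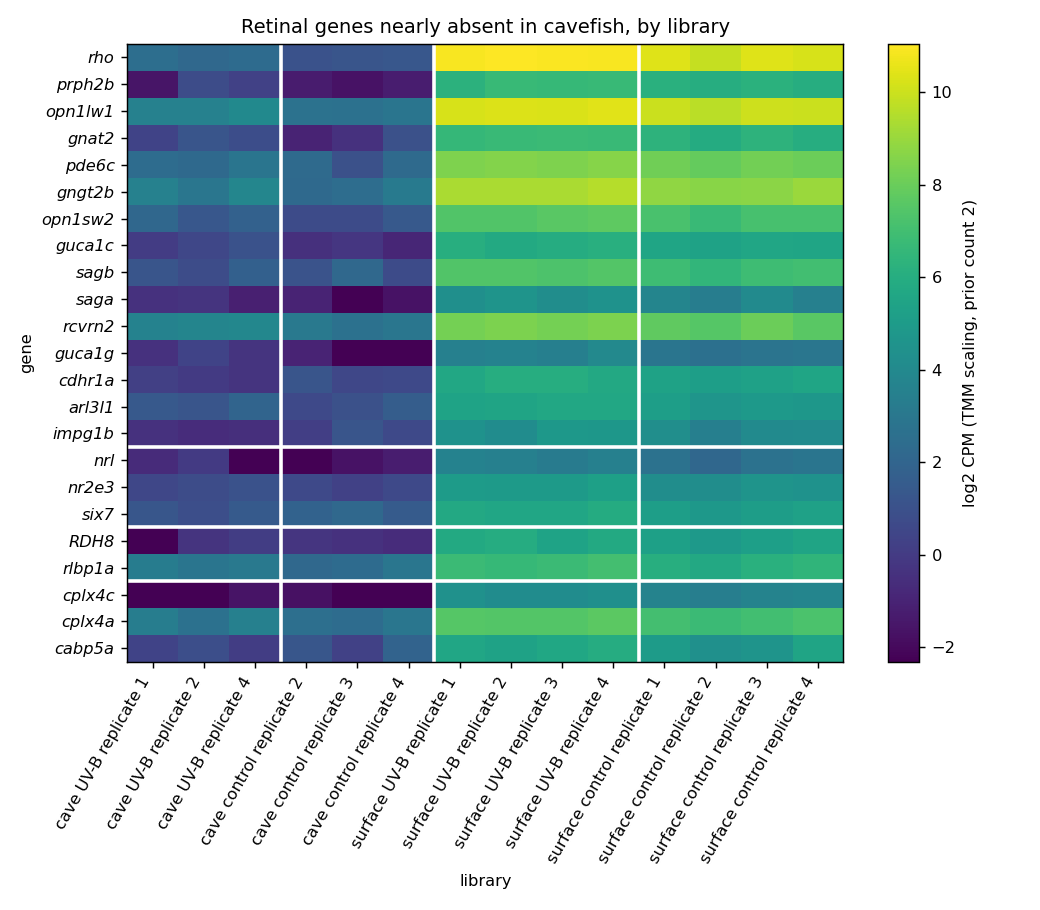
Log2 CPM of the 23 retinal genes among the 175 (rows, grouped by white lines into phototransduction and outer segment, transcription factors, visual cycle, and inner retina and synapse) in each of the 14 libraries (columns). Every row is darker, that is lower, in all 6 cave libraries than in all 8 surface libraries, which the choice of genes required.

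The lists of retinal genes were taken from the same named genes, whose names came from lists of UV-B responses. They were also chosen with earlier results of these data known. The shares below therefore describe the listed genes only and cannot show which parts of the retina the rule reached. Of 40 listed retinal genes 23 were in the group, namely 15 of 18 in phototransduction and the outer segment, 3 of 5 photoreceptor transcription factors, 2 of 4 in the visual cycle and supporting cells and 3 of 13 in the inner retina and ribbon synapse. Of the other 17, 16 were called lower in cave controls and 1 was called higher. The higher one was cngb3.2, a cone channel subunit gene, which averaged 55.9 ± 7.78 normalised CPM in cave controls (SD, n = 3) and 21.9 ± 3.15 in surface controls (SD, n = 4).

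The photoreceptor factor crx was lower in cave controls by a log2 fold change of -2.70, with 13.3 ± 1.69 normalised CPM in cave controls and 85.2 ± 11.8 in surface controls. Among inner retina genes the log2 fold changes in cave controls ran from -2.72 for lrit1a, a synaptic adhesion gene, to -0.46 for pou4f2, a ganglion cell factor. None of the 6 genes listed as eye field (rx1, pax6a, six3a, six3b, pax2a and pitx3), which act in the developing eye among other places, was in the group. In cave controls 4 of them were called lower, beside 15.0% of all genes, and pax2a was called higher (log2 fold change 0.43). Counts of lower genes outside the group come from the contrast that chose it and are given as a description.

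Named genes outside the retinal lists numbered 28. Mitochondrial and ion-handling genes were among the highest in counts. The mitochondrial creatine kinase ckmt2a, which shuttles phosphate between ATP and creatine, had 12.7, 11.3 and 18.5 normalised CPM in cave UV-B larvae, 4.48, 3.48 and 8.29 in cave controls, 528, 534, 575 and 594 in surface UV-B larvae, and 426, 328, 418 and 351 in surface controls. The cone-enriched gene es1 (so known in zebrafish) had 2.51, 1.69 and 3.84 normalised CPM in cave UV-B larvae, 1.46, 1.46 and 2.69 in cave controls, 309, 265, 313 and 365 in surface UV-B larvae, and 231, 188, 228 and 223 in surface controls. The mitochondrial phosphate carrier slc25a3a had 0.835, 2.91 and 0.991 normalised CPM in cave UV-B larvae, 0.833, 1.01 and 1.34 in cave controls, 71.5, 76.5, 76.1 and 77.5 in surface UV-B larvae, and 61.4, 44.2, 55.8 and 45.1 in surface controls. In all 3 the cave libraries were under 20 normalised CPM. The plasma membrane calcium pump atp2b1b had 4.31, 5.21 and 7.80 normalised CPM in cave UV-B larvae, 8.02, 6.39 and 10.1 in cave controls, 91.3, 88.7, 89.3 and 89.8 in surface UV-B larvae, and 70.5, 58.0, 67.6 and 69.4 in surface controls. Here the cave values overlapped between UV-B and control larvae.

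ckmt2a had been listed under skeletal muscle, and it was the only gene of that list in the group. The other 13 muscle genes summed to between 26577 and 37252 normalised CPM in cave UV-B larvae, 19629 and 31177 in cave controls, 18408 and 20775 in surface UV-B larvae, and 14439 and 16703 in surface controls. This sum was thus not lower in cave libraries, unlike ckmt2a, but it mostly reflects acta1b and mylz3. They averaged 17674 and 6300 normalised CPM in cave controls and 10884 and 3917 in surface controls. Of the 13 genes, 5 were called higher in cave controls and 0 lower, beside 12.7% and 15.0% of all genes tested.

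The synaptic vesicle glycoprotein gene sv2ba had 2.37, 2.76 and 2.85 normalised CPM in cave UV-B larvae, 1.88, 1.46 and 1.46 in cave controls, 74.1, 76.3, 66.9 and 71.1 in surface UV-B larvae, and 53.3, 47.3, 50.4 and 54.1 in surface controls. The kainate receptor subunit gene grik1b had 6.12, 10.9 and 7.80 normalised CPM in cave UV-B larvae, 8.02, 5.61 and 11.4 in cave controls, 118, 118, 114 and 118 in surface UV-B larvae, and 68.4, 61.3, 75.031 and 95.8 in surface controls. The cell adhesion gene nectin1a had 1.53, 1.69 and 2.35 normalised CPM in cave UV-B larvae, 3.96, 2.24 and 2.80 in cave controls, 41.3, 43.7, 46.1 and 42.9 in surface UV-B larvae, and 30.8, 24.9, 30.8 and 32.2 in surface controls. In grik1b the UV-B and control values of cavefish overlapped fully, and the surface UV-B values lay above all surface controls.

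The lipid transfer gene osbpl7 had 2.09, 1.84 and 2.11 normalised CPM in cave UV-B larvae, 1.04, 1.57 and 1.34 in cave controls, 33.8, 38.2, 41.2 and 49.6 in surface UV-B larvae, and 29.2, 18.2, 29.1 and 28.2 in surface controls. The endoplasmic reticulum thioredoxin-related gene tmx3a had 3.76, 0.613 and 1.98 normalised CPM in cave UV-B larvae, 2.92, 1.01 and 1.34 in cave controls, 40.5, 45.0, 46.9 and 48.3 in surface UV-B larvae, and 28.2, 24.1, 34.3 and 30.7 in surface controls. In both, every cave library lay under 4 normalised CPM and every surface library over 18. The uncharacterised gene si:ch211-113d22.2 had 3.76, 2.61 and 3.47 normalised CPM in cave UV-B larvae, 1.56, 2.36 and 2.80 in cave controls, 126, 138, 118 and 131 in surface UV-B larvae, and 87.4, 73.5, 75.4 and 86.1 in surface controls. Another, si:dkey-206f10.1, had 0.696, 0.613 and 0.495 normalised CPM in cave UV-B larvae, 1.77, 1.01 and 0.336 in cave controls, 55.0, 54.5, 68.6 and 64.3 in surface UV-B larvae, and 43.0, 35.2, 46.8 and 47.0 in surface controls.

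The remaining 16 named genes, opn6a among them, averaged between 0.147 and 1.89 normalised CPM in cave controls and between 6.66 and 24.5 in surface controls. They included the diacylglycerol kinase dgkab, the oxidoreductase aifm2, the apoptosis inhibitor faim2b, the channel subunit hcn3, the aldose reductase akr1b1.1, the septin sept4a and prkar2ab. The uncharacterised genes were si:ch211-276i12.4, si:ch211-175f12.2, zgc:195245, si:dkey-283b15.2, zgc:109965, si:ch211-13f8.1, si:dkey-94f20.4 and si:ch211-285j22.5. The lowest difference among them was that of dgkab (-6.03).

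Several unnamed genes were as abundant in counts as the named ones. ENSAMXG00000011446 had 15.0, 12.7 and 29.0 normalised CPM in cave UV-B larvae, 9.27, 5.50 and 12.3 in cave controls, 1044, 956, 1075 and 1099 in surface UV-B larvae, and 759.7, 489.9, 669.7 and 699.6 in surface controls. ENSAMXG00000001701 had 1.25, 0.920 and 0.495 normalised CPM in cave UV-B larvae, 0.833, 0.224 and 0.560 in cave controls, 377, 398, 448 and 491 in surface UV-B larvae, and 314, 297, 348 and 289 in surface controls. Its difference of -8.81 was next to that of rho. ENSAMXG00000040526 (difference -8.28) had 0, 0 and 0 counts in cave UV-B libraries and 0, 0 and 2 in cave controls, against 101, 80.6, 61.7 and 50.2 normalised CPM in surface UV-B larvae and 72.5, 78.3, 96.6 and 75.1 in surface controls.

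The next comparison asked whether these genes responded to UV-B in surface fish, where they are expressed. They mostly rose. Of 175 tested, 103 were called higher and 4 lower after UV-B (edgeR quasi-likelihood test, adjusted p under 0.05), which is 58.9% higher, beside 13.4% higher and 15.4% lower among all 15523 genes. Among the 12736 genes with a mean count of at least 50 over the surface libraries, 15.6% were called higher and 16.5% lower. The median log2 fold change of the 175 was 0.49, against 0.0010 over all genes tested. A positive estimate was found in 150 of the 175, beside 50.1% of all genes tested. The changes were modest, with a range of 0.34 to 1.00 among genes called higher, and the only called change of at least 2-fold was a decrease.

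**Figure D3:**
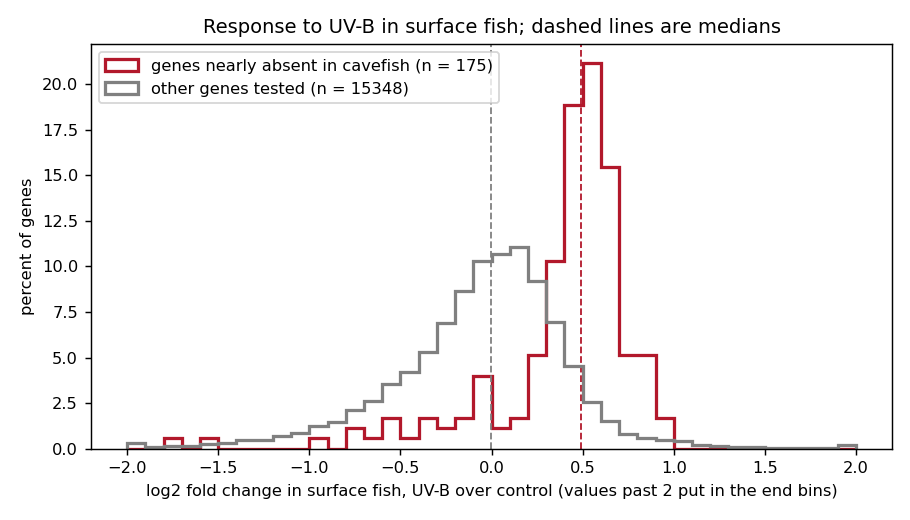
Distribution of log2 fold changes in surface fish, UV-B over control, for the 175 genes (red) and the other genes tested (grey), as percent of each set per bin of 0.1. The red distribution is centred near its median of 0.49 (dashed), right of the grey one.

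Of the 51 named genes all 51 were called higher, but names came from lists of UV-B responses, so this is not independent evidence of their direction. Of the 124 unnamed genes 52 were called higher and 4 lower, with a median of 0.43. Among all genes tested 13.4% were called higher and 15.4% lower. The split by name is itself tied to those lists, which also held 11 of the unnamed genes, so the unnamed genes are no independent set. In 80 of the 175 genes all surface UV-B libraries lay above all surface controls, and in 2 they lay below, beside 12.6% and 15.3% of all genes. The surface libraries also entered the rule, the controls through their mean and all of them through the lowest value.

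The named photoreceptor genes were higher in surface UV-B larvae. Their names came from lists of UV-B responses, so a rise was favoured in advance, for each gene and for their sum. The summed level of the 15 phototransduction and outer segment genes was 5131 to 5646 normalised CPM in surface UV-B larvae and 3033 to 3903 in surface controls, and the groups did not overlap. rho averaged 1970.3 ± 91.4 normalised CPM in surface UV-B larvae and 1202 ± 185 in surface controls (SD, n = 4 each; log2 fold change 0.71, SE 0.11, adjusted p = 0.000148, edgeR). opn1lw1 averaged 1278 ± 77.8 in surface UV-B larvae and 958 ± 98.1 in surface controls (log2 fold change 0.42, SE 0.09, adjusted p = 0.00318), and opn1sw2 188 ± 20.4 in surface UV-B larvae and 135 ± 18.1 in surface controls (log2 fold change 0.48, SE 0.11, adjusted p = 0.00318). Surface control replicate 2 was the lowest control for all 3 opsins. The cascade genes gave similar changes, 0.56 for gnat2, 0.58 for gngt2b, 0.46 for pde6c, 0.57 for sagb, 0.47 for guca1c and 0.58 for rcvrn2 on the log2 scale, all called. The largest in this list was that of guca1g (0.82, SE 0.17).

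The 3 transcription factors also rose, with log2 fold changes of 0.84 for nrl (SE 0.18), 0.64 for nr2e3 (SE 0.12) and 0.60 for six7 (SE 0.11). In six7 the 4 surface UV-B libraries lay between 48.1 and 60.2 normalised CPM and the controls between 28.2 and 40.0. rlbp1a rose by 0.70 (SE 0.12), RDH8 by 0.51 (SE 0.12), and the synaptic genes cplx4c, cplx4a and cabp5a by 0.65, 0.51 and 0.71. UV-B and control libraries overlapped for RDH8 and cabp5a. The 17 retinal genes outside the group were also all called higher, under the same limit on how names were obtained.

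Outside the retina lists, ckmt2a rose by 0.55 (SE 0.10) and es1 by 0.53 (SE 0.10). The highest change among all 175 was that of akr1b1.1, which reduces sugars and aldehydes, with 48.7, 30.1, 57.5 and 49.0 normalised CPM in surface UV-B larvae and 22.6, 30.6, 21.8 and 18.1 in surface controls (log2 fold change 1.00, SE 0.18, adjusted p = 0.000653, edgeR). Its groups overlapped, because surface UV-B replicate 2 lay within the controls. Among unnamed genes the highest were ENSAMXG00000017742 (0.97, SE 0.29) and ENSAMXG00000017731 (0.87, SE 0.30).

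The 4 genes that fell had no name. ENSAMXG00000008988 had 16.7, 15.2, 10.9 and 6.32 normalised CPM in surface UV-B larvae and 53.8, 29.6, 41.0 and 24.8 in surface controls (log2 fold change -1.59, SE 0.25, adjusted p = 0.000278, edgeR). ENSAMXG00000041895 had 39.9, 27.3, 31.6 and 26.2 normalised CPM in surface UV-B larvae and 65.4, 53.4, 65.7 and 51.2 in surface controls (log2 fold change -0.92, SE 0.13, adjusted p = 0.000108). All UV-B libraries lay below all controls for both genes. The other 2, ENSAMXG00000035463 and ENSAMXG00000039021, had log2 fold changes of -0.79 and -0.56.

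Listed genes of other tissues were also called after UV-B in the same libraries. Their names came from the same lists of UV-B responses, so a high share of calls was favoured in advance. Among all genes tested 13.4% were called higher and 15.4% lower, and the counts below do not stand for whole tissues. Of 18 intestinal genes 16 were called higher in surface UV-B larvae and 1 lower, and their sum was 4263 to 6167 normalised CPM after UV-B and 2282 to 4052 in controls. Of 14 muscle genes 4 were called higher and 10 lower, and of 5 pigment cell genes all 5 were lower. Of 13 immediate early genes 11 were called higher. Of 10 liver genes 6 were called higher and 1 lower, of 7 skin genes 2 and 5, of 7 neuronal genes 3 and 3, of 5 immune and blood cell genes tested 1 and 3, of 6 eye field genes 4 and 2 and of 6 clock and repair genes 5 and 0, and the single heart gene was higher. Their part in the change of the 175 genes was not tested. Without TMM scaling, with library totals alone, the median of all genes was -0.18 and that of the 175 was 0.31, and 62 of them were called higher and 8 lower.

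In cavefish the question was whether the little expression that remained also responded. Only 66 of the 175 genes passed the filter on low counts and were tested, and the 109 left out had too few counts. Of the 66, 7 were called higher after UV-B and none lower (edgeR), which is 10.6%, beside 12.6% higher and 13.8% lower among all 15244 genes. This share is near the background. An unadjusted p under 0.05 was found in 15 of the 66, all of them higher. No share of all genes at that unadjusted limit is given here, so the 15 have no background beside them. The cave controls entered the rule through their low mean, so this comparison is not independent of how the genes were chosen, and no count over the 66 stands for all 175. The median log2 fold change of the 66 was 0.41, and the same 66 had a median of 0.54 in surface fish. All cave UV-B libraries lay above all cave controls in 14 of the 66 and below in 3, beside 20.2% and 21.2% of all genes.

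Of the 3 visual opsins rho and opn1lw1 rose, and opn1sw2 gave an estimate that did not pass (log2 fold change 0.87, SE 0.42, adjusted p = 0.141, edgeR). rho averaged 4.90 ± 0.495 normalised CPM in cave UV-B larvae and 2.08 ± 0.187 in cave controls (SD, n = 3 each; log2 fold change 1.23, SE 0.34, adjusted p = 0.0175, edgeR), on 39, 29 and 39 counts in cave UV-B libraries and 18, 19 and 20 in cave controls. opn1lw1 averaged 13.0 ± 2.57 in cave UV-B larvae and 6.52 ± 0.501 in cave controls (log2 fold change 1.00, SE 0.23, adjusted p = 0.00692). rcvrn2 averaged 13.2 ± 1.20 in cave UV-B larvae and 7.26 ± 1.11 in cave controls (log2 fold change 0.86, SE 0.23, adjusted p = 0.0125). In rho, opn1lw1 and rcvrn2 all cave UV-B libraries lay above all cave controls, as in 20.2% of all genes tested. The call of rho was lost under library totals, under a replicate block, and without cave UV-B replicate 1 or 4, that of opn1lw1 without cave UV-B replicate 4, and that of rcvrn2 under library totals, without cave control replicate 3 and without cave UV-B replicate 4.

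ckmt2a gave 12.7, 11.3 and 18.5 normalised CPM in cave UV-B larvae and 4.48, 3.48 and 8.29 in cave controls (log2 fold change 1.39, SE 0.31, adjusted p = 0.00554, edgeR). This call held in all 14 alternatives, with adjusted p between 0.000141 and 0.0466. The unnamed genes were ENSAMXG00000039021 (log2 fold change 1.65), ENSAMXG00000041737 (1.42) and ENSAMXG00000011446 (1.07). Their calls were lost in 3, 7 and 4 of 14 alternatives. Other photoreceptor genes gave estimates that did not pass, such as 0.86 for gnat2 (SE 0.61), 0.80 for gngt2b (SE 0.31), 0.56 for pde6c (SE 0.38) and -0.17 for sagb (SE 0.48). The 15 phototransduction genes summed to 55.0 to 72.6 normalised CPM in cave UV-B larvae and 33.8 to 42.4 in cave controls. Their names came from lists of UV-B responses and the rule required low cave controls, so a rise of this sum was favoured in advance. The sum mostly reflects the more abundant of the 15 and does not stand for each of them. The means of sagb, cdhr1a and impg1b were lower in cave UV-B larvae than in cave controls.

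The cave count rested on few libraries and on the fit. It was 3 when cave control replicate 3 was left out, 4 when cave UV-B replicate 1 was, and 1 when cave UV-B replicate 4 was, while library totals called 3 higher and 1 lower, with a median of 0.07 for the 66 and of -0.33 for all genes. A model over all libraries called 23 higher and 3 lower, but there all 175 entered, most of them only through the surface libraries where the rule made them high. Listed genes of other tissues were called here too, under the same limit on how names were obtained. Among all genes tested 12.6% were called higher and 13.8% lower, and these counts do not stand for whole tissues. Of 10 liver genes 8 were called higher and 1 lower, of 14 muscle genes 2 and 5, of 5 pigment cell genes 0 and 4, of 7 skin genes 2 and 3, of 7 neuronal genes 0 and 3, of 6 immune and blood cell genes 2 and 2, of 6 eye field genes 0 and 3 and of 6 clock and repair genes 2 and 3. All 13 immediate early genes were higher, the single heart gene was not called, and 17 of 18 intestinal genes were called higher, with a sum of 4772 to 4979 normalised CPM in cave UV-B larvae and 1685 to 2314 in cave controls. Their part in the result was not tested.

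**Figure D4:**
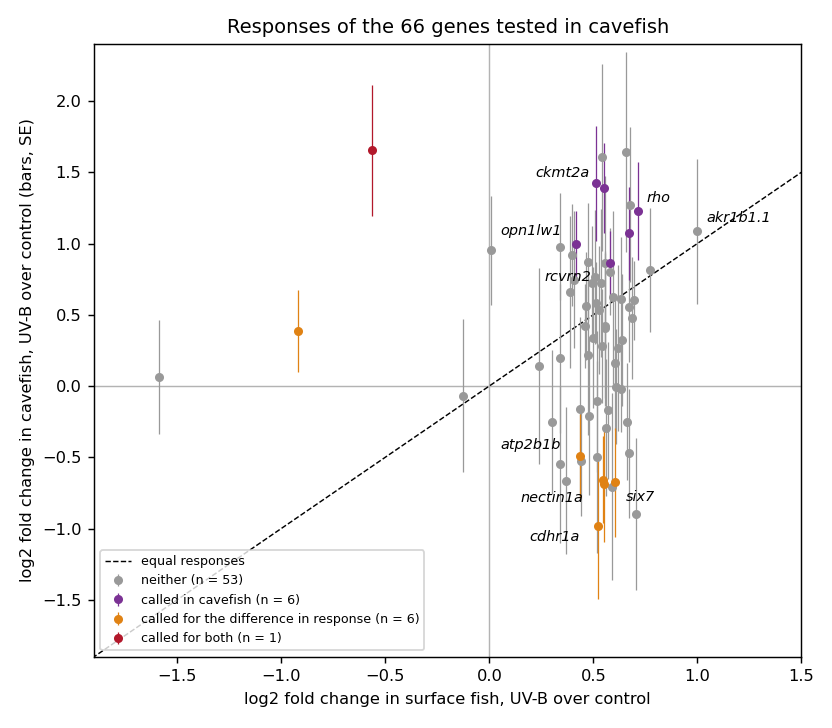
Log2 fold change after UV-B in cavefish (vertical axis, bars are SE) against that in surface fish (horizontal axis) for the 66 genes tested in both. Of the points, 6 were called in cavefish alone, 6 for the difference in response alone and 1 for both, and rho and ckmt2a lie above the dashed line of equal responses while cdhr1a and six7 lie below 0 in cavefish.

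Whether the populations responded differently was tested by the population by UV-B interaction over all 14 libraries. Of the 175 genes 9 were called (edgeR), 3 with a positive and 6 with a negative difference of log2 fold changes, cave minus surface, which is 1.71% and 3.43%, beside 1.41% and 2.29% of all 16104 genes, or 3.70% in either direction. All 175 entered this test, although 109 had too few counts for a test in cavefish and passed only through the surface libraries where the rule made them high, so the count does not stand for all 175. The rule also used the controls of both populations, with a low mean in cave controls and a high one in surface controls. This can favour a positive difference, so the test is not independent of how the genes were chosen. Of the 9, 7 were also tested in cavefish. The median interaction of the 175 was -0.09, and 33 had an unadjusted p under 0.05, a count given without a share of all genes at that limit. For the opsins no difference was called, with 0.52 for rho (SE 0.25), 0.58 for opn1lw1 (SE 0.20) and 0.40 for opn1sw2 (SE 0.31) on the log2 scale.

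Among the 6 with a negative difference were the photoreceptor genes cdhr1a, six7 and impg1b. cdhr1a averaged 0.787 ± 0.178 normalised CPM in cave UV-B larvae and 1.55 ± 0.462 in cave controls, against 58.3 ± 6.87 in surface UV-B larvae and 40.6 ± 3.99 in surface controls (interaction -1.52, SE 0.37, adjusted p = 0.0237, edgeR). six7 averaged 2.17 ± 0.460 in cave UV-B larvae and 3.50 ± 0.846 in cave controls, against 52.6 ± 5.78 in surface UV-B larvae and 34.5 ± 4.91 in surface controls (interaction -1.28, SE 0.29, adjusted p = 0.0171). For both, the cave UV-B libraries lay below all cave controls and the surface UV-B libraries above all surface controls. Among all genes tested, 21.2% lay below without overlap in cavefish and 12.6% above in surface fish. The cave estimates were -0.98 for cdhr1a and -0.68 for six7, opposite in sign to the surface changes, and neither was called. The interaction call was lost in 5 of 20 alternatives for cdhr1a and in 3 of 21 for six7. impg1b had the lowest interaction of the 6, but it was too low in cavefish to be tested there and its call was lost in 6 of 20 alternatives (-2.09, SE 0.53, adjusted p = 0.0289), on 4, 3 and 4 counts in cave UV-B libraries and 9, 19 and 12 in cave controls.

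The other 3 with a negative difference were nectin1a (-1.24), atp2b1b (-0.92) and ENSAMXG00000019838 (-1.21, adjusted p = 0.00768 by edgeR). Of 21 alternatives, the call was lost in 4 for nectin1a, 6 for atp2b1b and 1 for ENSAMXG00000019838. The 3 with a positive difference had no name. ENSAMXG00000039021 had 1.81, 4.60 and 4.71 normalised CPM in cave UV-B larvae, 1.15, 1.12 and 1.23 in cave controls, 24.7, 50.7, 40.3 and 44.4 in surface UV-B larvae, and 73.0, 66.8, 44.1 and 54.5 in surface controls (interaction 2.22, SE 0.48). Of the 175 genes it alone was called higher in cavefish and lower in surface fish. Its interaction call was lost in 2 of 21 alternatives, its cave call in 3 of 14 and its surface call in 4 of 16. ENSAMXG00000041895 gave an interaction of 1.31, with a cave estimate of 0.39 that was not called beside its decrease in surface fish. Its interaction call was lost in 2 of 21 alternatives. ENSAMXG00000042064 gave 5.01 on 1, 4 and 5 counts in cave UV-B libraries and 0 in every cave control. This value depends on the prior count and is no bound, the gene was not tested in cavefish, and its call was lost in 13 of 20 alternatives.

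limma-voom called none of the 9 (19 of the 175 had an unadjusted p under 0.05), and 4 genes were called without cave UV-B replicate 2. The 19 are also given without a share of all genes at that limit.

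**Figure D5:**
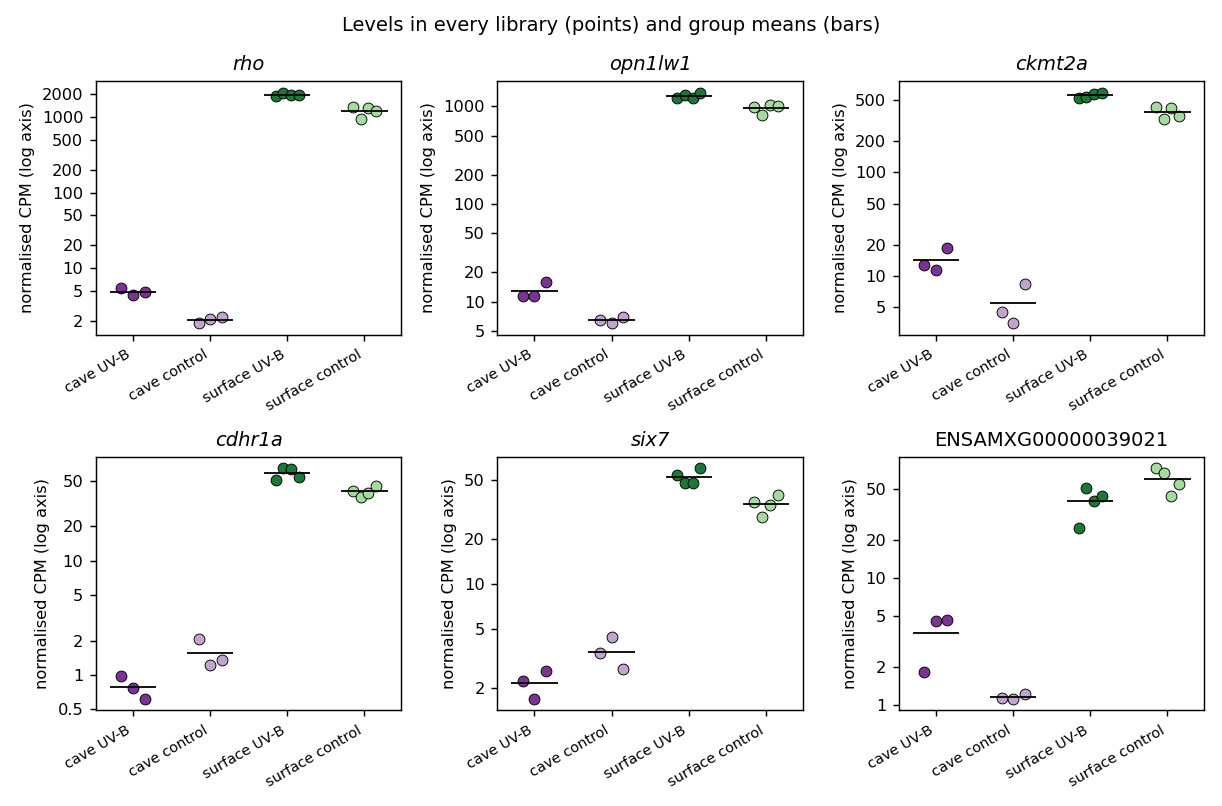
Normalised CPM (log axis) of rho, opn1lw1, ckmt2a, cdhr1a, six7 and ENSAMXG00000039021 in every library (points), with group means (bars), for cave UV-B, cave control, surface UV-B and surface control larvae. In cavefish rho, opn1lw1 and ckmt2a were called higher after UV-B, whereas cdhr1a and six7 lay lower and were not called. In surface fish all 5 named genes were called higher after UV-B.

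Many of the 175 genes, but not all, varied with the phototransduction genes among surface libraries. After the group means were removed, each gene was correlated with the mean of the phototransduction genes over the 8 surface libraries. The correlation had a median of 0.57 over the 175. It was at least 0.5 in 99 of the 175 (56.6%) and in 13.2% of the other genes that met the count minimum. It was 0.97 for osbpl7, 0.95 for ENSAMXG00000019838, 0.88 for ckmt2a and 0.84 for tmx3a. It was under 0 in 29 genes, with -0.66 for aifm2 and -0.40 for akr1b1.1 as the only named ones. The 15 phototransduction genes are themselves among the 175, each correlated with the mean of the others. These points share libraries, surface control replicate 2 with its low sum among them. Its part in the correlations was not tested, and they are given as a description.

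Surface control replicate 2 had the lowest sum of the 175 genes, 7171 normalised CPM, against 8987 to 9361 in the other surface controls and 12099 to 13352 in surface UV-B larvae. ENSAMXG00000035067 had 316, 187, 176 and 418 normalised CPM in surface UV-B larvae and 253, 47.4, 187 and 204 in surface controls. Its UV-B and control libraries overlapped and its change was not called (log2 fold change 0.66, SE 0.35, adjusted p = 0.162, edgeR). Without surface control replicate 2 the count of the 175 called after UV-B in surface fish was 97, with a median of 0.42.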

How the data were processed

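RNA was sequenced from 14 pools of whole larvae after selection of poly-A RNA. The values the authors deposited were raw read counts per gene. By the study's methods, STAR mapped the reads to the Mexican tetra genome, version 2.0, under Ensembl release 108. The mapper's version, the strand setting and the treatment of multi-mapping reads were not given in the sources used here, so near-identical copies, overlapping genes and antisense genes are uncertain. A copy of the counts in the study's supplement holds larger values and was not used. The deposited table may therefore hold only part of each gene's reads, for a reason not given in the sources used here, and every count, zero and count minimum refers to the deposited table. All 14 count columns matched a sample by name.

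The 175 genes, their lists and the tests were chosen with earlier results of these data known. Gene names came from the study's supplementary tables of UV-B responses (names only), which matched 51 of the 175. The rule for naming was that every named gene is given and unnamed genes only at the extremes of a comparison or of the rule. The gene lists were of phototransduction, photoreceptor factors, visual cycle, inner retina, eye field, light-induced clock and repair, intestine, liver, skeletal muscle, heart, skin, neurons, immune cells, pigment cells and immediate early genes.

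Tests used the quasi-likelihood test of edgeR 4.0.16 (R 4.3.3) on all genes that passed filterByExpr, with TMM scaling, no covariate and Benjamini-Hochberg adjustment over all genes tested, and adjusted p under 0.05 was called. The surface and cave responses each used the libraries of that population, and the interaction used all 14. DESeq2 1.42.0 and limma-voom (limma 3.58.1) were alternatives, as were library totals, RLE size factors, no filter, a stricter count filter, a replicate block, a joint model over all libraries, leaving out each library, and other thresholds of the rule. Standard errors are the absolute log2 fold change over the square root of F. CPM values were scaled with TMM factors over the 14 libraries. Library totals were 7.42 to 15.26 M. Pairs of replicates differed by a chi-square of 5.01 to 18.5 per degree of freedom, so none was a repeat. The labels named no sequencing batch. The tests and the rule were tested on simulated data.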

Additional observations from a re-analysis of the deposited data

Results flagged for a closer look

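Single libraries that stood apart from the other 3 of their group were looked for in 130 groups of 4 surface libraries, where chance sets about 1 in 20 apart, and 9 were found, given here in log2 CPM. Surface control replicate 2 was low in 5 of them, with 9.67 for opn1lw1 (others 9.95 to 10.00), 7.56 for es1 (others 7.80 to 7.85), 6.76 for opn1sw2 (others 7.15 to 7.20), 4.20 for osbpl7 (others 4.83 to 4.88) and 2.74 for ENSAMXG00000017742 (others 4.19 to 4.47). In surface UV-B larvae, replicate 1 was low for prph2b (6.28, others 6.62 to 6.69), replicate 4 high for gngt2b (9.58, others 9.32 to 9.35), replicate 2 high for zgc:109965 (4.56, others 4.29 to 4.31) and replicate 3 low for grik1b (6.83, others all 6.88).

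A difference in the response to UV-B between cavefish and surface fish was called by the interaction term of edgeR in 9 of the 175 genes. This was 1.71% with a positive and 3.43% with a negative difference, beside 1.41% and 2.29% of all genes tested, or 3.70% in either direction. These shares are near the background, and limma-voom called none of the 9. Of the 9, 7 were also tested in cavefish, and the rest passed the filter only through the surface libraries. The controls of both populations entered the rule, so this test is not independent of how the genes were chosen. The log2 interaction was -1.52 for cdhr1a, -2.09 for impg1b, -1.24 for nectin1a, -1.28 for six7, -0.92 for atp2b1b and -1.21 for ENSAMXG00000019838, where the surface change was an increase and the cave estimate was not called or, for impg1b, could not be tested. It was 1.31 for ENSAMXG00000041895, 2.22 for ENSAMXG00000039021 and 5.01 for ENSAMXG00000042064. Of these, ENSAMXG00000041895 fell in surface fish with no call in cavefish, ENSAMXG00000039021 fell in surface fish and rose in cavefish, and ENSAMXG00000042064 had no count in any cave control and was not tested in cavefish.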

How the results depend on the processing

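The number of genes was 293 at a difference of at most -2, 96 at most -4, and 139 to 212 under the other settings of scaling, prior count and count minimum, and it was 167 to 188 when a single library was left out. Genes with at most 3 counts in every cave library numbered 53 with a mean count of at least 20, 12 with at least 100, and 19 to 27 without a single library. For the surface response, library totals gave 70 genes (62 higher, 8 lower), the other alternatives 83 to 115, and leaving out a library 90 to 112. For the cave response, library totals gave 4 genes, the model over all libraries, which took in all 175, 26, and leaving out a library 1 to 9. The 5 to 8 genes of the other alternatives included no lower gene. For the interaction, limma-voom gave 0 genes (19 unadjusted, given without a share of all genes), and leaving out a library 4 to 13. The cause of these shifts was not tested.

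Library totals moved the median of all genes by -0.18 in surface fish and -0.33 in cavefish, so changes are read relative to it. Of 79 gene results with 1292 alternative values, 1199 kept their direction and their side of the threshold, 91 lost the call, 1 gained it and 1 turned sign, the uncalled surface response of ENSAMXG00000040526, which ran between -0.32 without surface UV-B replicate 1 and 0.0174 without surface UV-B replicate 4. Same-numbered libraries correlated at -0.02 to 0.16 and not each best with its own number, so the replicate numbers were not used as pairs. In surface fish UV-B replicates 1 and 4 correlated best with the control of their own number (0.08 and 0.10). UV-B replicates 2 and 3 did so with control replicates 3 and 2 (0.11 and 0.10). A pairing of the pools is therefore not excluded, and the main tests took none into account. A replicate block by number gave 115 genes for the surface response, 5 for the cave response and 8 for the interaction. Low counts kept 109 of the 175 genes out of the cave test.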
